A study of Mus musculus with 441 samples.

Results

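Regulatory T cells (Tregs) were compared with T follicular helper cells among CD4 T cells sorted from mouse pancreatic islets with the Ins tetramer. The comparison took the 115 cells that the authors' annotation calls Treg and the 61 cells that it calls T follicular helper, so 176 of the 257 cells of the Ins sort and of the 441 cells of the whole series. Both classes came from the same sort, and a tetramer joins copies of an MHC class II molecule loaded with a peptide and stains T cells whose receptor fits. The labels do not spell out Ins, and they give the pancreas as digested with collagenase, the islets as dissociated and the cells as deposited singly by flow cytometry. Strain, genotype, age, sex and number of mice are not stated in the sources used here, and no label ties a cell to an animal. Full-length SMART-Seq2 libraries of single cells were sequenced with paired-end reads on a NextSeq 500. The wider study concerns how peptides reach MHC class II in autoimmunity, and this comparison asks how the regulatory and the helper cells that bind one tetramer differ.

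The classes are those of the authors' annotation, and the sources used here do not say how they were made. They may have been cut from the same expression values that are compared here. Each gene difference below is therefore a description of those classes and carries no test. The sort counts as 1 sample. Cell names carry numbers, and the Ins cells fall into 3 blocks of 96 consecutive numbers with 31, 40 and 44 Tregs and 16, 22 and 23 follicular helper cells. The blocks may be plates, which the labels do not name. They are used to show spread within the sort and are not replicates. Levels are in TPM, the share of a gene's transcripts among all transcripts of the cell after correction for length. A gene counted as detected from 1 TPM upward, and shares of cells carry exact 95% intervals that cover counting error only. A 0 can be a transcript that was not captured, and TPM keeps no sequencing depth. The number of genes above 0, the only stand-in for depth, was 2017 at the median in Tregs (694 to 3399) and 1963 in follicular helper cells (827 to 3284). By block it was 2226, 2148.5 and 1847.5 in Tregs and 2076, 2267.5 and 1764 in follicular helper cells.

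Most cells carried the transcripts their label calls for, but 4 follicular helper cells did not. Cd3d, Cd3e and Cd3g, which encode chains of the T cell receptor complex, were all undetected in those 4 cells, and in 0 of 115 Tregs (a share of up to 2.61%). All 4 were in block 1, where they made up 4 of 16 follicular helper cells. A pair of them carried the B cell receptor gene Cd79a at 3823 and 5745 TPM and the class II invariant chain gene Cd74 at 8499 and 21633 TPM, with Tcf7 and Cd4 at 0. In the other pair the ribosomal RNA precursor Rn45s took 19.0% and 21.8% of TPM, against means of 2.62% ± 1.07 in all Tregs and 3.08% ± 3.30 in all follicular helper cells (SD over cells). Counts that lead the account below are given with and without these 4 cells. Cd4 itself was detected in 95 Tregs (82.6%, 74.4% to 89.0%) and 51 follicular helper cells (83.6%, 71.9% to 91.8%), and Cd8a, which marks the other main T cell lineage, in 4 and 3 cells.

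Tregs restrain immune responses and depend on the transcription factor Foxp3, the receptor for interleukin 2 and inhibitory receptors such as CTLA-4. T follicular helper cells guide B cells through germinal centres with CD40 ligand and interleukin 21, and depend on the factors Bcl6 and TCF1 (Tcf7) and on the chemokine receptor CXCR5. Bcl6 and Blimp-1, the product of Prdm1, repress one another, and Blimp-1 is a known feature of Tregs that have entered tissues. Both cell types have been described in inflamed islets.

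The promoters of 3 transcription factor genes are shown because these genes lay in opposite directions between the classes: Foxp3 and Prdm1 higher in Tregs and Bcl6 lower. Each sequence runs from 250 bases before to 50 bases after the start of the transcript, on the gene's own strand, as RefSeq gives it for GRCm38.p6. They are Foxp3 at chrX:7579426-7579725 (+ strand), Prdm1 at chr10:44458699-44458998 (- strand) and Bcl6 at chr16:23988803-23989102 (- strand). Capitals mark matches, on either strand, to 4 short motifs: TTCAAAG for TCF/LEF factors, GTAAACA for forkhead factors, TGANTCA for AP-1 and TTCNNNGAA for BCL6 and STAT factors.
Foxp3: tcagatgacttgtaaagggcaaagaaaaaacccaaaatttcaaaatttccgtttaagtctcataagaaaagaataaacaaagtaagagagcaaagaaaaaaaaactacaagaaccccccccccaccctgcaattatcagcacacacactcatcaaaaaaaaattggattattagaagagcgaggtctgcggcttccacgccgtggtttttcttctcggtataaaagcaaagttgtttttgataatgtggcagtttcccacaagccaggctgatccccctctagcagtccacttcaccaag
Prdm1: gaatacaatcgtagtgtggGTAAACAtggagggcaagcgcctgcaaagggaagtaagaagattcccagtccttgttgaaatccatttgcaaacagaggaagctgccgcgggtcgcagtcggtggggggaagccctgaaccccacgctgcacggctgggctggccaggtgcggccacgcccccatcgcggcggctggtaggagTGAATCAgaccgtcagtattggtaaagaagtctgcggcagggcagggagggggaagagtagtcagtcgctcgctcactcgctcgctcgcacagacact
Bcl6: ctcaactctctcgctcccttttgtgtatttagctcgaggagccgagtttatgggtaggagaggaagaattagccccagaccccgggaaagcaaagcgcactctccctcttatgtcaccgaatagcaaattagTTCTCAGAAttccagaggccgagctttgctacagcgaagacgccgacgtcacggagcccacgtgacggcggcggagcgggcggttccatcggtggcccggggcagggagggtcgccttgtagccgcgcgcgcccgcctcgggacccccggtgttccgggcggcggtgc
Prdm1 held a forkhead match that begins at base -231 and an AP-1 match at -48, counted from the start of the transcript, and Bcl6 held 1 match to the BCL6 and STAT motif at -118. No letters of the 4 motifs were found in the Foxp3 window.

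Over all promoters of the same length in that table (27025), the TCF/LEF letters were found in 5.26%, the forkhead letters in 3.52%, the AP-1 letters in 7.92% and the BCL6 and STAT letters in 8.42%. Among genes higher in Tregs by the rule given next, 375 of 504 had a promoter, with shares of 4.00%, 1.33%, 7.73% and 9.60% in the same order of motifs. Among genes lower in Tregs, 148 of 187 had one, with 5.41%, 0.676%, 4.73% and 9.46%. The 4104 genes with a promoter out of all 5417 compared held the letters in 3.70%, 2.29%, 4.85% and 6.92%. A match to so few letters is a description of the sequence and not a binding site.

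More genes lay higher in Tregs than lay lower. The difference used throughout is the mean of log2(TPM + 1) over Tregs minus that over follicular helper cells. A gene is called higher or lower when this difference was at least 1 in size and kept its sign in each of the 3 blocks. Among 5417 genes found in 18 or more of the 176 cells (10%), 504 were higher in Tregs (9.30%) and 187 lower (3.45%). The filter pools both classes, so a gene can pass through the class in which it is high. This holds for each list below, whose counts describe the classes and support nothing. Tregs are the larger class and reach 18 cells more easily. With equal weight of the classes in the filter, 492 genes were higher and 204 lower. Without the 4 follicular helper cells that lacked CD3 transcripts, 433 were higher and 241 lower. The count of lower genes depended on single blocks: it was 386 without block 1 and 333 without block 3, where agreement in fewer blocks was asked for. The median difference over all 5417 genes was 0.04. Where many cells hold 0, such a difference mostly follows the share of cells in which the gene was detected, so levels and shares are given beside it.

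Nkg7, which encodes a granule protein of cytotoxic lymphocytes, led the genes higher in Tregs. Its level per Treg had a lowest value of 0, a median of 1996 and a highest of 18655 TPM, against a lowest and a median of 0 and a highest of 2413 TPM in follicular helper cells. It was detected in 80 Tregs (69.6%, 60.3% to 77.8%) and 6 follicular helper cells (9.84%, 3.70% to 20.2%), and the difference was 7.18. By block, it was detected in 74.2%, 72.5% and 63.6% of Tregs and in 6.25%, 13.6% and 8.70% of follicular helper cells. Itgae, which encodes CD103, the alpha chain of an integrin that binds E-cadherin on epithelium, was detected in 84 Tregs (73.0%, 64.0% to 80.9%) and 3 follicular helper cells (4.92%, 1.03% to 13.7%). It averaged 658.9 ± 777.7 TPM in Tregs and 7.82 ± 58.5 TPM in follicular helper cells (SD over cells), a difference of 6.49. Ifngr1, a chain of the receptor for interferon gamma, was detected in 92 Tregs (80.0%) and 9 follicular helper cells (14.8%), with means of 1118 ± 1335 and 33.4 ± 128.7 TPM and a difference of 6.67. Arl5a, which encodes a small GTPase of the Golgi, was found in 104 Tregs (90.4%) and 9 follicular helper cells (14.8%), with a difference of 6.55.

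The other genes among the 15 largest differences in that direction were Foxp3, Ly6a (5.51), Lgals1 (5.48), Gimap7 (5.47), Cst3 (5.29), Vim (5.27), Tnfrsf1b (5.24), S100a6 (5.18), Tnfrsf18 (5.18), Capg (5.16) and Tnfrsf4 (5.11). They include receptors of the TNF family, the galectin Lgals1, the intermediate filament gene Vim and the actin-capping gene Capg. The rule asked for 1 sign in the 3 blocks, and the smallest block value among them was 3.34, for Lgals1 in block 2. Ly6a, Gimap7 and, below, Ms4a4b, the Gbp genes and Bcl2a1b and Bcl2a1d belong to families of similar genes that can share reads, so their values are uncertain.

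In the opposite direction Tcf7, which encodes TCF1, stood apart. Its level had a median of 0 and a highest value of 484.8 TPM in Tregs, against a median of 705.5 and a highest of 3552 TPM in follicular helper cells. It was detected in 3 Tregs (2.61%, 0.541% to 7.43%) and 47 follicular helper cells (77.0%, 64.5% to 86.8%), a difference of -7.17. By block, 6.45%, 0% and 2.27% of Tregs and 62.5%, 95.5% and 69.6% of follicular helper cells held it. Block 1, with the 4 cells that lacked CD3 transcripts, had the lowest of these follicular helper shares, and without those cells the difference was -7.63.

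Tnfsf8, the ligand of CD30, was seldom detected in Tregs. It was detected in 2 Tregs (1.74%), with a highest level of 10.1 TPM, and in 31 follicular helper cells (50.8%, 37.7% to 63.9%) with a mean of 312.6 ± 662.8 TPM. The difference was -3.98. Dennd2d, a regulator of Rab GTPases, was found in 12 Tregs (10.4%) and 40 follicular helper cells (65.6%), and Tbc1d4, a Rab GTPase activator known for glucose transporter traffic, in 11 (9.57%) and 40 (65.6%). Their differences were -4.97 and -4.69. Ms4a4b, a membrane protein gene of T cells, differed by -4.97, with 18 Tregs (15.7%) and 39 follicular helper cells (63.9%). Tespa1, an adaptor of receptor signalling in thymocytes, was found in 2 Tregs (1.74%) and 29 follicular helper cells (47.5%).

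The rest of the 15 largest negative differences were Cxcr5, Il16 (-3.31), Cd83 (-3.15), Ehd3 (-2.99), Tnfrsf26 (-2.81), Tmsb10 (-2.78), Asap1 (-2.60), Dgkz (-2.46) and Lax1 (-2.40). Il16 encodes a chemoattractant for CD4 cells, Tmsb10 an actin-binding peptide, and Dgkz and Lax1 restrain antigen receptor signalling. The block value nearest 0 among these genes was -0.75, for Tmsb10 in block 1. Cd83, a surface protein of activated lymphocytes and dendritic cells, was at 4466 and 7452 TPM in 2 of the 4 cells without CD3 transcripts. Without those 4 cells its difference was -2.94.

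**Figure D1:**
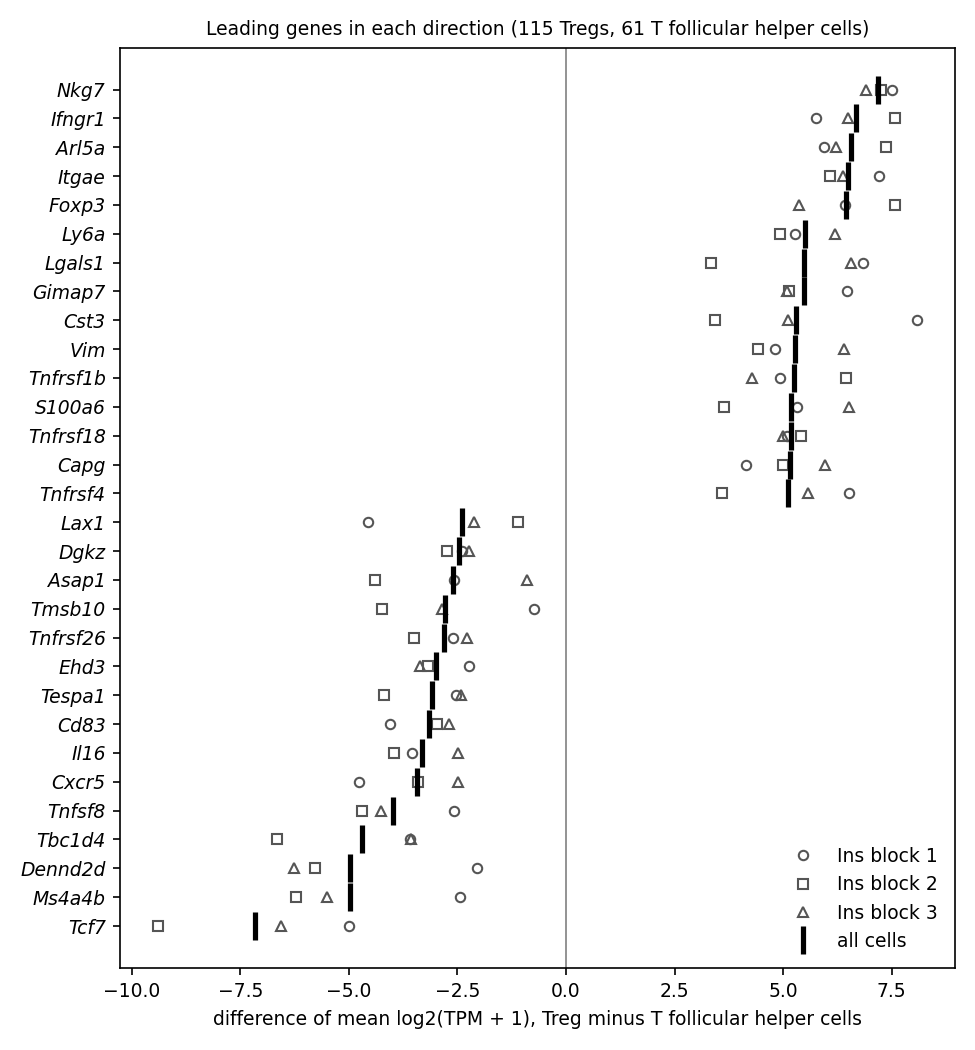
Differences of mean log2(TPM + 1), Tregs minus follicular helper cells, for the 15 genes with the largest value in each direction; the black bar is the value over all 115 Tregs and 61 follicular helper cells, and the open symbols are the 3 blocks. Nkg7 lies furthest right at 7.18 and Tcf7 furthest left at -7.17, and the plotted genes were chosen to have 1 sign in the 3 blocks.

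Of the defining factors, Foxp3 (chromosome X, 7573644 to 7595245, GRCm38) was detected in 94 Tregs (81.7%, 73.5% to 88.3%) and 8 follicular helper cells (13.1%, 5.84% to 24.2%). Its level per cell had a median of 489.6 and a highest value of 2032 TPM in Tregs, against a median of 0 and a highest of 400.9 TPM in follicular helper cells. Among cells that held it, the median was 597.2 TPM in Tregs and 216.0 TPM in follicular helper cells. The difference was 6.44, and the shares by block were 96.8%, 87.5% and 65.9% in Tregs and 31.2%, 4.55% and 8.70% in follicular helper cells. Block 3 thus had the lowest Treg share and block 1 the highest follicular helper share. That block 1 share includes 1 of the cells without CD3 transcripts, with Foxp3 at 7.71 TPM. Without the cells that lacked CD3 transcripts the difference was 6.42. In 21 cells of the same sort annotated as B cells, which should lack it, Foxp3 was found in 1 (4.76%, 0.120% to 23.8%).

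Prdm1 and Bcl6 lay in opposite directions. Prdm1 was detected in 43 Tregs (37.4%, 28.6% to 46.9%) at a mean of 38.5 ± 83.5 TPM and in 2 follicular helper cells (3.28%, 0.400% to 11.3%) at 1.76 ± 13.3 TPM, a difference of 1.95. Its block values were 3.19, 2.22 and 0.81, and the share of Tregs was 58.1%, 42.5% and 18.2%. Bcl6 was detected in 14 Tregs (12.2%, 6.82% to 19.6%) at 16.8 ± 51.7 TPM and in 24 follicular helper cells (39.3%, 27.1% to 52.7%) at 143.4 ± 364.8 TPM, a difference of -1.88. Both were found together in 7 of 115 Tregs and 0 of 61 follicular helper cells (a share of up to 4.92%). The promoter windows of this pair are printed above.

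**Figure D2:**
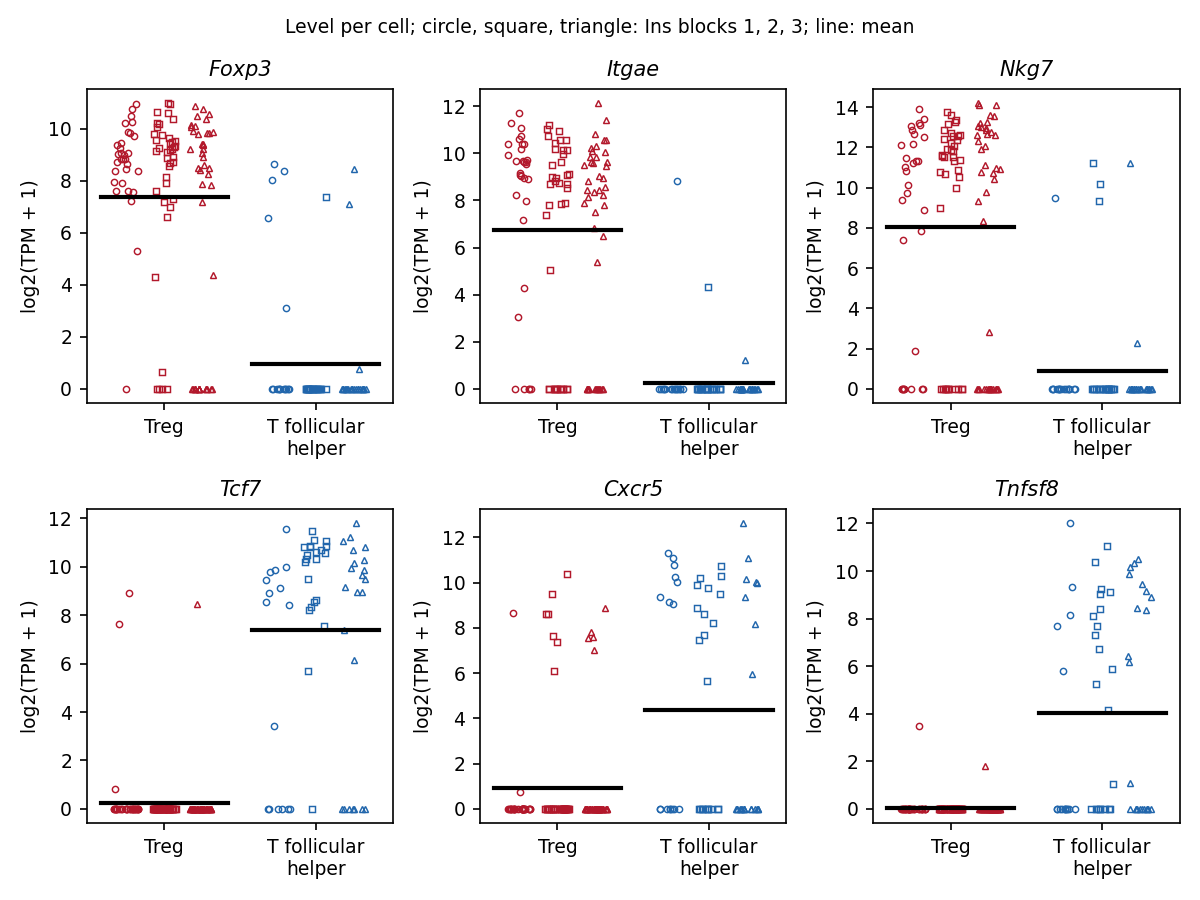
Level of 6 genes in each cell as log2(TPM + 1), Tregs to the left of follicular helper cells; each point is a cell, the symbol gives the block and the line is the class mean. Foxp3, Itgae and Nkg7 are detected in 94, 84 and 80 of 115 Tregs, and Tcf7, Cxcr5 and Tnfsf8 in 47, 28 and 31 of 61 follicular helper cells, with the remaining cells mostly at 0.

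Of 21 symbols on the list of Treg markers, 20 were in the table and 15 passed the detection filter. Among these, 11 were higher in Tregs, 0 lower and 4 neither, beside 9.30% higher and 3.45% lower over all genes. The median difference was 2.48, beside 0.04 over all genes. A marker can pass through the class in which it is high, so this count describes the classes and supports nothing, and the median over the 19 members detected in any cell was 1.60. Il2ra, the high-affinity receptor chain for interleukin 2, was detected in 40 Tregs (34.8%, 26.1% to 44.2%) and 3 follicular helper cells (4.92%), a difference of 1.60. Ctla4, an inhibitory receptor for CD80 and CD86, was found in 90 Tregs (78.3%) at 858.0 ± 996.9 TPM and 20 follicular helper cells (32.8%) at 152.2 ± 391.6 TPM, a difference of 4.96. Ikzf2 (Helios) and Ikzf4 (Eos), zinc finger factors of the Treg programme, differed by 1.38 and 1.80, and Ikzf4 by 1.10 without cells that held islet or acinar transcripts. Entpd1, the ectoenzyme CD39, was found in 48 Tregs (41.7%) and 3 follicular helper cells (4.92%), and Folr4, the folate receptor family member also called Izumo1r, in 109 (94.8%) and 46 (75.4%).

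Tnfrsf9 (0.72), Gpr83 (0.53), Nrp1 (-0.76) and Nt5e (-2.13) were neither higher nor lower by the rule. Nrp1, a marker of Tregs that arise in the thymus, was detected in 9 Tregs (7.83%) and 13 follicular helper cells (21.3%). Nt5e, the ectoenzyme CD73, was detected in 30 Tregs (26.1%, 18.3% to 35.1%) and 29 follicular helper cells (47.5%, 34.6% to 60.7%), but its block values of 0.29, -4.05 and -2.02 differed in sign. Lrrc32, Klrg1, Il1rl1, Areg and Ebi3 did not pass the filter and were detected in 6, 3, 7, 5 and 0 Tregs and in 1, 0, 3, 0 and 0 follicular helper cells.

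The list of follicular helper markers had 22 members, of which 17 passed the filter: 2 were higher in Tregs, 11 lower and 4 neither, beside 9.30% higher and 3.45% lower over all genes, with a median of -1.66. These members too can pass the filter through the class in which they are high, so the count supports nothing. Cxcr5, the receptor that leads cells into B cell follicles, was detected in 13 Tregs (11.3%, 6.16% to 18.6%) at 42.5 ± 162.4 TPM and in 28 follicular helper cells (45.9%, 33.1% to 59.2%) at 517.3 ± 993.0 TPM, a difference of -3.42. The 28 include the pair of cells with Cd79a and no CD3 transcripts, at 653.1 and 2572 TPM. Without the cells that lacked CD3 transcripts Cxcr5 differed by -3.37. Il21, the cytokine that drives germinal centre B cells, was found in 3 Tregs (2.61%) and 17 follicular helper cells (27.9%), and Cd40lg, which encodes CD40 ligand, in 1 (0.870%) and 17 (27.9%). Sh2d1a, the adaptor SAP, needed for stable contact with B cells, differed by -2.07, and the nuclear factors Tox and Tox2 by -1.35 and -1.66. The receptors Cd84 (-1.57), Btla (-1.18) and Il6ra (-1.40) completed the lower members. Id3, an inhibitor of E proteins, was just under the filter and was found in 0 of 115 Tregs, a share of up to 2.61%, and 17 of 61 follicular helper cells (27.9%, 17.1% to 40.8%).

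Members of that list did not all lie one way. Icos, a costimulatory receptor that Tregs use too, was higher in Tregs, with 85 (73.9%, 64.9% to 81.7%) against 33 follicular helper cells (54.1%, 40.8% to 66.9%) and a difference of 2.40. Maf, a factor that drives both Il21 and Il10, was also higher, with 68 Tregs (59.1%) and 20 follicular helper cells (32.8%) and a difference of 1.94. Pdcd1, which encodes PD-1, was neither: it was detected in 47 Tregs (40.9%, 31.8% to 50.4%) and 34 follicular helper cells (55.7%, 42.4% to 68.4%), and its block values were -3.56, 1.19 and -3.33. Slamf6 (-2.70) and Cd200 (-2.06) had the opposite sign in block 1, at 0.38 and 0.43, and Il6st differed by -0.17. Ascl2, Il4, Pou2af1 and Cebpa were detected in 0, 0, 3 and 0 Tregs and in 2, 1, 9 and 1 follicular helper cells.

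**Figure D3:**
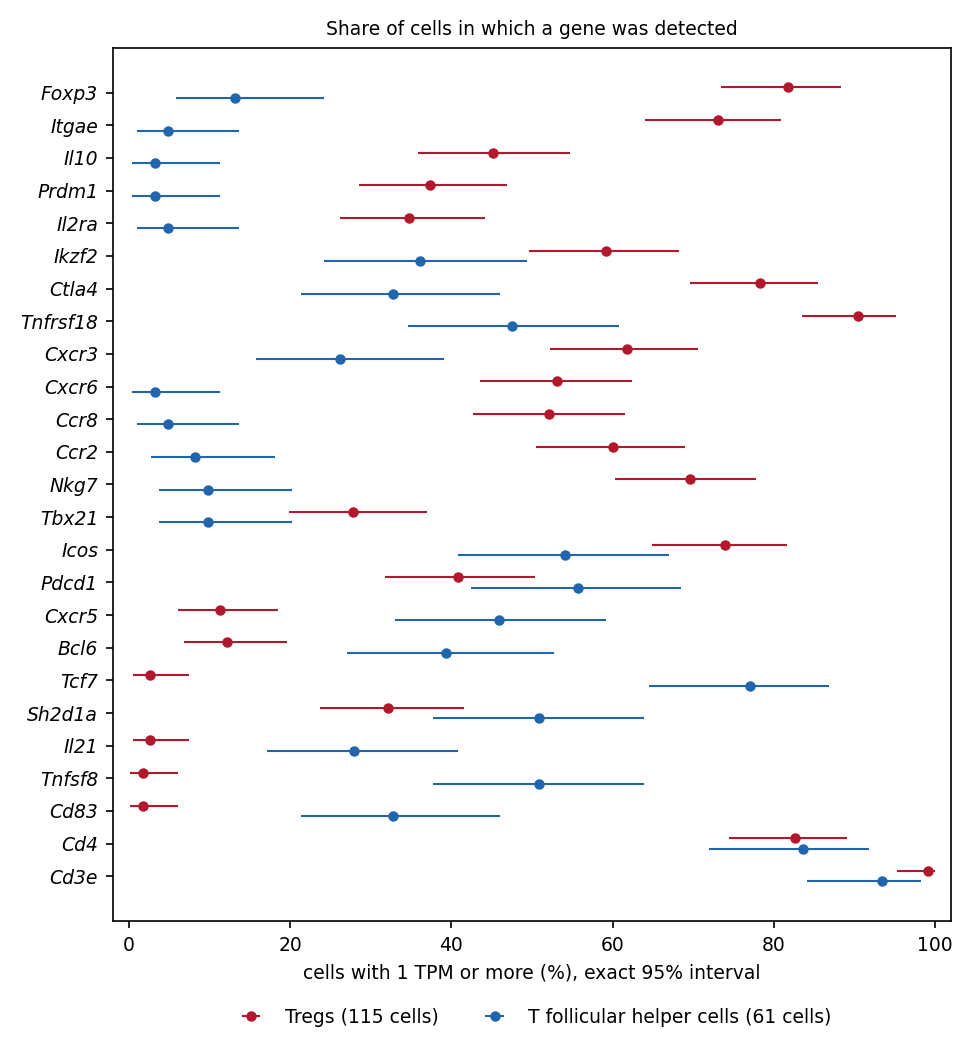
Share of cells in which a gene was detected at 1 TPM or more, with exact 95% intervals that cover counting error only; in each row the upper point is the Treg share (115 cells) and the lower point the follicular helper share (61 cells). Foxp3, Itgae, Cxcr6, Ccr8 and Il10 lie far to the right in Tregs and Tcf7, Tnfsf8, Il21 and Cd83 in follicular helper cells, while the intervals overlap for Tbx21, Icos, Pdcd1, Sh2d1a, Cd4 and Cd3e.

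Within single cells the marker sets mostly kept to their class. The markers can pass the filter through the class in which they are high, so the counts per cell describe the classes and support nothing. Of the 15 Treg markers that passed the filter, a Treg held 8 at the median (1 to 12) and a follicular helper cell 4 (0 to 10). Of the 17 follicular helper markers, a Treg held 4 (0 to 8) and a follicular helper cell 8 (2 to 12). More Treg than follicular helper markers were found in 106 of 115 Tregs (92.2%, 85.7% to 96.4%) and in 7 of 61 follicular helper cells (11.5%, 4.74% to 22.2%), by lists of unequal length. Foxp3 was found with Cxcr5 in 10 Tregs and with Bcl6 in 12, while all 3 Tregs with Tcf7 also held Itgae. Of the 8 follicular helper cells with Foxp3, 6 also held Tcf7, 4 held Cxcr5 and 7 held Ikzf2. These 8 include 1 of the cells without CD3 transcripts, with Foxp3 at 7.71 TPM and Tcf7 at 9.66 TPM. Cxcr5 and Tcf7 were found together in 22 of 61 follicular helper cells and 0 of 115 Tregs.

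**Figure D4:**
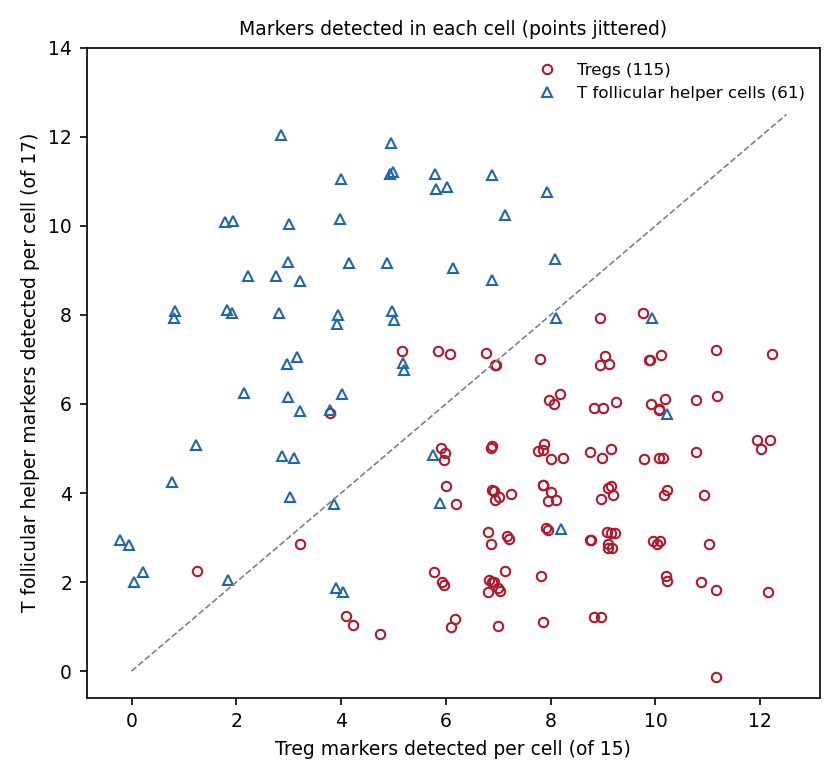
Number of Treg markers (of 15, horizontal) and of follicular helper markers (of 17, vertical) detected in each cell, with points shifted slightly so that they do not hide each other; circles are Tregs, triangles follicular helper cells, and the dashed line marks equal numbers. Tregs lie mostly below the line, at medians of 8 and 4, and follicular helper cells mostly above it, at medians of 4 and 8.

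Receptors for chemoattractants, which set where T cells go, split into opposite groups. Of 18 listed, 17 were in the table and 10 passed the filter, with 5 higher in Tregs, 4 lower and 1 neither, beside 9.30% higher and 3.45% lower over all genes. Cxcr6 was detected in 61 Tregs (53.0%, 43.5% to 62.4%) and 2 follicular helper cells (3.28%, 0.400% to 11.3%), with means of 719.5 ± 1020 and 9.35 ± 72.9 TPM and a difference of 4.96. Ccr8, a receptor found on Tregs of inflamed tissue and tumours, was detected in 60 Tregs (52.2%, 42.7% to 61.6%) and 3 follicular helper cells (4.92%), a difference of 4.74. Of the 115 Tregs, 30 held both Cxcr6 and Ccr8, 31 only Cxcr6, 30 only Ccr8 and 24 neither. Whether the detection of this pair was related was not tested.

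Ccr2, a receptor for monocyte chemoattractants, had block differences of 4.40, 4.43 and 4.43, and was detected in 69 Tregs (60.0%) at 296.0 ± 404.6 TPM. The 5 follicular helper cells that held it had a highest level of 12.0 TPM. Cxcr3, a receptor linked to type 1 inflammation, was detected in 71 Tregs (61.7%) and 16 follicular helper cells (26.2%), a difference of 3.36. Lower in Tregs were Cxcr5, Gpr183 (-2.02), the oxysterol receptor EBI2 that places cells at the follicle edge, Cxcr4 (-1.65), which retains cells in marrow and germinal centre dark zones, and S1pr1 (-1.01), the receptor for exit from lymphoid organs. Ccr7, the receptor for entry into lymph nodes, did not pass the filter and was found in 2 Tregs (1.74%, 0.211% to 6.14%) and 15 follicular helper cells (24.6%, 14.5% to 37.3%).

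Adhesion molecules included some of the largest differences. Of 18 listed, 11 passed the filter, with 4 higher in Tregs, 1 lower and 6 neither, beside 9.30% and 3.45% of all genes (median 0.43). Itgb7 encodes the beta chain that pairs with CD103, the alpha chain encoded by Itgae. Itgb7 was detected in 96 Tregs (83.5%, 75.4% to 89.7%) at 801.7 ± 699.5 TPM and 21 follicular helper cells (34.4%, 22.7% to 47.7%) at 235.9 ± 434.9 TPM, a difference of 4.77. Selplg, the selectin ligand PSGL-1, differed by 4.83 (93 and 20 cells) and Cd2 by 2.78. Itgb1, the common beta chain of matrix-binding integrins, lay the other way at -2.03, with 12 Tregs (10.4%) and 20 follicular helper cells (32.8%). The integrin chains Itga4 (-0.31), Itgal (-0.09) and Itgb2 (0.20) were neither.

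Of 16 inhibitory and costimulatory receptors listed, 12 passed the filter, 6 with a difference above 0 and 6 below it (median 0.76). By the rule 6 were higher, 1 lower and 5 neither, beside 9.30% and 3.45% of all genes. Lag3, an inhibitory receptor that binds MHC class II, was detected in 113 Tregs (98.3%) and 48 follicular helper cells (78.7%), and its level had a median of 3545 TPM in Tregs and 513.7 TPM in follicular helper cells. Tigit, which competes for the ligands of CD226, was found in 113 Tregs (98.3%) and 47 follicular helper cells (77.0%), at medians of 4598 and 878.6 TPM. Both genes were thus present in most cells of either class and differed by 4.60 and 4.34. Havcr2, which encodes TIM-3, was found in 27 Tregs (23.5%, 16.1% to 32.3%) and 0 follicular helper cells, a share of up to 4.92%. It thus passed the filter through Tregs alone. Cd5, which dampens receptor signals, differed by 3.12.

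Receptors of the TNF family had 10 of 13 members past the filter, with 4 higher in Tregs, 1 lower and 5 neither, beside 9.30% and 3.45% of all genes (median 0.37). Tnfrsf18 (GITR) was detected in 104 Tregs (90.4%) at 2337 ± 1697 TPM and 29 follicular helper cells (47.5%) at 660.1 ± 960.3 TPM, with block differences of 5.09, 5.42 and 5.00. Tnfrsf4 (OX40) was found in 101 (87.8%) and 27 (44.3%) cells, Tnfrsf1b (TNF receptor 2) in 95 (82.6%) and 16 (26.2%), and Cd27 in 87 (75.7%) and 31 (50.8%). Tnfrsf26 was the lower member, with 6 Tregs (5.22%) and 24 follicular helper cells (39.3%). Tnfrsf9, Fas, Tnfrsf10b, Tnfrsf13b and Tnfrsf14 lay between -0.78 and 0.72 and were neither.

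The axis of interleukin 2 and STAT5, which sustains Tregs and opposes the follicular helper fate, had 13 of 16 members past the filter, with 7 higher, 1 lower and 5 neither, beside 9.30% and 3.45% of all genes (median 1.26). All 3 chains of the receptor were higher: Il2ra, Il2rb (2.80, detected in 104 Tregs and 39 follicular helper cells) and Il2rg (2.15, 107 and 49). The feedback genes Socs2 (1.78), Socs3 (1.65) and Cish (1.26) and the kinase gene Jak3 (1.71) were the other higher members. Stat5a itself was lower at -1.14, Stat5b was neither at -0.65, and Bcl2, a survival gene, was found in 1 Treg (0.870%) and 12 follicular helper cells (19.7%) and did not pass the filter.

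Among other cytokine receptors and STAT factors, 20 of 21 passed the filter, with 4 higher, 1 lower and 15 neither, beside 9.30% and 3.45% of all genes (median 0.32). Ifngr1 was higher at 6.67 while its partner chain Ifngr2 was neither at -0.72, detected in 11 Tregs (9.57%) and 18 follicular helper cells (29.5%). Il18r1, which marks type 1 cells and tissue Tregs, was found in 36 Tregs (31.3%) at 86.9 ± 216.3 TPM and in 3 follicular helper cells (4.92%) at 0.171 ± 0.598 TPM. Il1r2, a decoy receptor for interleukin 1, differed by 1.90 and Il21r by 1.72. Il6ra was the lower member.

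Cytokines and ligands that passed the filter, 8 of 26 listed and 21 in the table, were 3 higher, 4 lower and 1 neither, beside 9.30% and 3.45% of all genes (median -0.40). Il10, an inhibitory cytokine, was detected in 52 Tregs (45.2%, 35.9% to 54.8%) at 386.3 ± 770.0 TPM and 2 follicular helper cells (3.28%, 0.400% to 11.3%) at 4.73 ± 36.7 TPM, a difference of 3.82. It was found with Foxp3 in 44 of the 52 Tregs, beside Foxp3 in 94 of all 115 Tregs. Ccl5, an inflammatory chemokine, was in 40 Tregs (34.8%) and 5 follicular helper cells (8.20%), a difference of 3.47, and Csf1, the macrophage growth factor, differed by 1.42. The lower members were Il16, Il21, Tnfsf8 and Cd40lg. Tnfsf11, which encodes RANKL, did not pass the filter and was found in 0 Tregs and 7 follicular helper cells (11.5%), and Ccl4 in 11 Tregs (9.57%) and 0 follicular helper cells.

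Of 18 type 1 helper genes listed, 12 passed the filter, 8 with a difference above 0 and 4 below it (median 1.35). By the rule 7 were higher, 0 lower and 5 neither, beside 9.30% and 3.45% of all genes. Tbx21, which encodes T-bet, was detected in 32 Tregs (27.8%, 19.9% to 37.0%) at 171.3 ± 387.6 TPM and 6 follicular helper cells (9.84%, 3.70% to 20.2%) at 40.0 ± 140.6 TPM, a difference of 1.57. Gzmb, the protease granzyme B, was found in 21 Tregs (18.3%) and 0 follicular helper cells, which allows up to 4.92%. It thus passed the filter through Tregs alone. Hopx differed by 1.14. The cytokine that defines the type 1 state, Ifng, was found in 3 Tregs (2.61%) and 0 follicular helper cells. Stat4, which drives Ifng, was neither at -0.94, as were Runx3, Bhlhe40 and Il12rb1. Tbx21 was found with Foxp3 in 27 of the 32 Tregs, and Cxcr3 with Foxp3 in 60 of 71, beside Foxp3 in 94 of all 115 Tregs.

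Among 27 factors of T cell fate, 19 passed the filter, with 7 higher, 4 lower and 8 neither, beside 9.30% and 3.45% of all genes (median 0.36). Id2, which opposes E proteins as Id3 does, was detected in 67 Tregs (58.3%, 48.7% to 67.4%) and 13 follicular helper cells (21.3%, 11.9% to 33.7%), a difference of 3.22 and so the opposite of Id3. Ikzf3 (Aiolos, 2.84), Ets1 (2.16), Nfkb2 (1.67) and Batf (1.56) were higher, as were Prdm1 and Id2, and Ikzf1 (Ikaros, -1.49), Lef1 (-1.39), Tox and Tox2 were lower. Gata3, Runx1, Bcl11b and Foxo1 lay between -0.02 and 0.28.

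Of 17 naive and recirculation genes, 8 passed the filter, 2 with a difference above 0 and 6 below it (median -0.99). By the rule 0 were higher in Tregs, 4 lower and 4 neither, beside 9.30% and 3.45% of all genes. Besides Tcf7, Lef1 and S1pr1, the lower members included Nsg2, detected in 0 of 115 Tregs (up to 2.61%) and 18 of 61 follicular helper cells (29.5%, 18.5% to 42.6%), which reached the filter through the follicular helper cells alone. Klf2, a factor of recirculating cells, was found in 1 Treg and 1 follicular helper cell. In block 1 the median of the list was 0.01, against -1.40 and -1.46 in blocks 2 and 3.

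**Figure D5:**
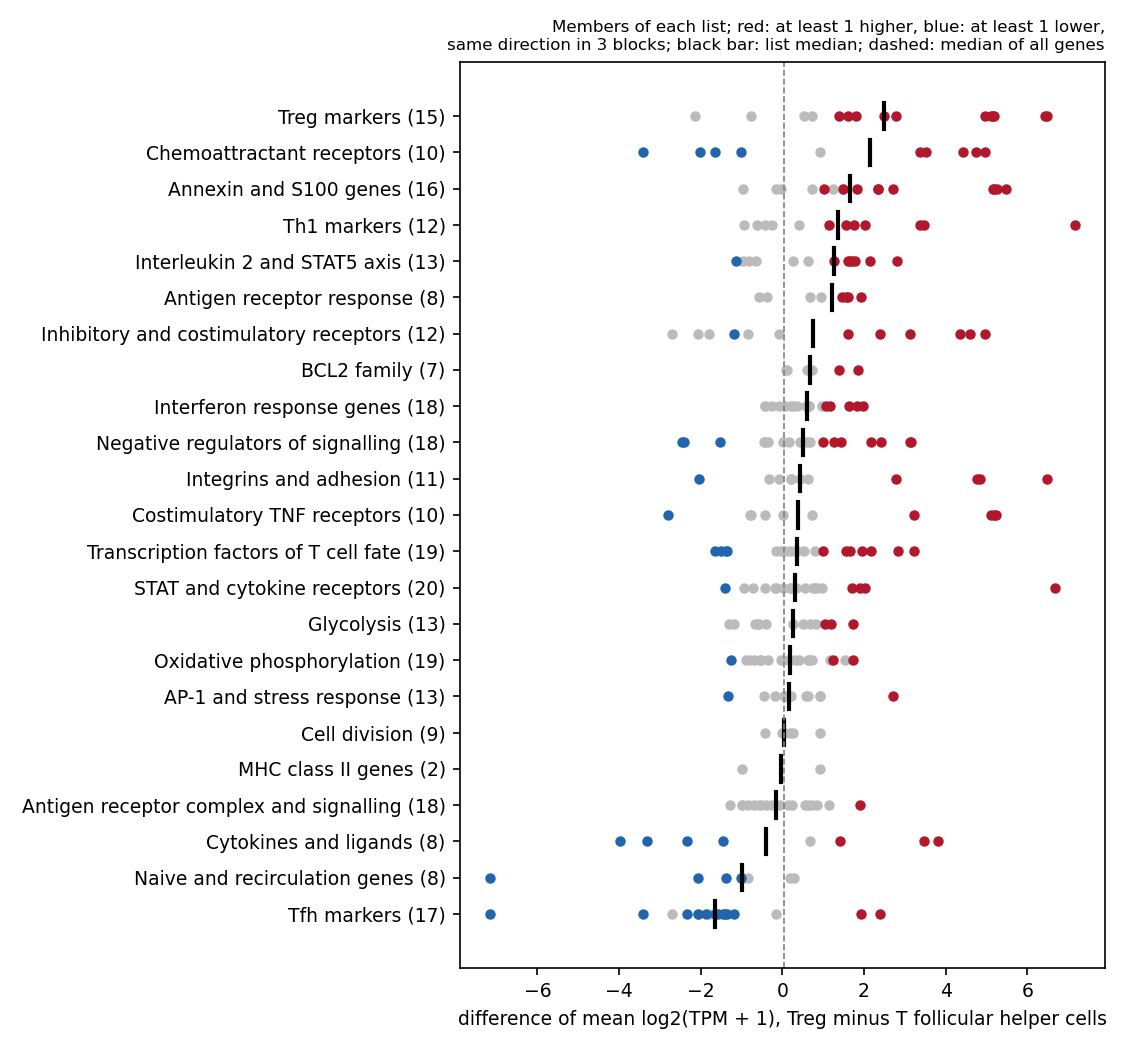
Difference of mean log2(TPM + 1), Tregs minus follicular helper cells, for the members of each list that passed the filter (their number in brackets); red points are at least 1 higher and blue points at least 1 lower with the same sign in 3 blocks, grey points are neither, the black bar is the list's median and the dashed line the median of all 5417 genes at 0.04. The Treg and follicular helper markers lie at the ends, and the receptor complex and cell division lists lie close to the dashed line.

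Genes that restrain signalling were found on both sides: 18 of 23 passed the filter, with 7 higher in Tregs, 3 lower and 8 neither, beside 9.30% and 3.45% of all genes (median 0.51). Rgs1, which dampens chemokine receptor signals, was detected in 50 Tregs (43.5%) and 5 follicular helper cells (8.20%), a difference of 3.15. The adaptors Sla (2.43), Dok2 (2.17) and Sla2 (1.27), the phosphatase genes Ubash3b (1.43) and Ptpn22 (1.01) and Cd5 were also higher. The diacylglycerol kinase genes Dgkz (-2.46) and Dgka (-1.52) and the adaptor Lax1 were lower. Lax1 had the opposite sign, at 0.14, when Tregs of the Ins sort were set against the 111 follicular helper cells of the HIP sort.

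The receptor complex and its proximal signalling genes gave 1 higher, 0 lower and 17 neither of 18 that passed the filter, beside 9.30% and 3.45% of all genes (19 listed, median -0.16). Cd3g was the higher member at 1.91, detected in 115 of 115 Tregs and 54 of 61 follicular helper cells (88.5%). The 4 cells without any CD3 chain are among the follicular helper cells that lacked it, and without them Cd3g differed by 1.22. Lck (-0.05), Zap70 (0.85), Lat (0.14) and Cd3e (0.62) were neither, and Cd3e differed by 0.00 without those 4 cells. Genes induced through the receptor had 8 of 15 past the filter, with 4 higher, 0 lower and 4 neither, beside 9.30% and 3.45% of all genes (median 1.21). Nr4a1, an early response gene of receptor stimulation, was found in 28 Tregs (24.3%) and 3 follicular helper cells (4.92%), a difference of 1.61, while Cd69, another early activation gene, was neither at -0.57. Nfkbia (1.93), Batf (1.56) and Irf8 (1.47) were the other higher members.

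AP-1 and stress genes, which can respond to tissue digestion, gave 1 higher, 1 lower and 11 neither of 13 that passed the filter, beside 9.30% and 3.45% of all genes (21 listed, median 0.17). Dusp1, a phosphatase induced by stress, was higher in Tregs, with 46 (40.0%, 31.0% to 49.5%) against 7 follicular helper cells (11.5%, 4.74% to 22.2%) and a difference of 2.70. Set against the follicular helper cells of the HIP sort, it had the opposite sign at -1.10. Btg2 was lower at -1.32, Junb (0.21) and Jund (0.08) were neither, and Fos was found in 4 Tregs and 1 follicular helper cell.

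Annexin, S100 and related genes of effector and tissue T cells gave 10 higher, 0 lower and 6 neither of 16 that passed the filter, beside 9.30% and 3.45% of all genes (19 listed, median 1.66). Lgals1, galectin-1, was detected in 105 Tregs (91.3%) at 2141 ± 1778 TPM and 28 follicular helper cells (45.9%) at 541.2 ± 812.1 TPM. S100a6 was found in 76 (66.1%) and 10 (16.4%), Vim in 89 (77.4%) and 18 (29.5%), Anxa6 in 85 (73.9%) and 27 (44.3%) and S100a4 in 31 (27.0%) and 2 (3.28%). Anxa2 (1.82), S100a10 (2.34) and Lgals3 (1.49) were also higher, while Anxa5 was neither at -0.97. Capg stands on this list and on that of Treg markers.

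Interferon response genes gave 5 higher, 0 lower and 13 neither of 18 that passed the filter, beside 9.30% and 3.45% of all genes (24 listed, median 0.61). The higher members were Irf1 (1.99), a factor induced by interferon gamma, and the guanylate-binding genes Gbp7 (1.82), Gbp4 (1.64), Gbp2 (1.17) and Gbp3 (1.08). Isg15 (-0.24) and Irf7 (0.65) were neither. Of the BCL2 family, 7 of 17 passed the filter, with Bcl2a1b (1.86) and Bcl2a1d (1.39) higher, 0 lower and 5 neither, beside the same shares (median 0.69). MHC class II genes had 2 of 10 past the filter, both neither. Cd74 shows how the scale matters: it was detected in 28 Tregs (24.3%) and 6 follicular helper cells (9.84%), a difference of 0.93, but its mean was 70.4 ± 179.9 TPM in Tregs and 517.8 ± 2957 TPM in follicular helper cells, with 8499 and 21633 TPM in the pair of cells with Cd79a.

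Of 22 cell division genes, 9 passed the filter, and 0 were higher, 0 lower and 9 neither, beside 9.30% and 3.45% of all genes (median 0.04). Mki67, which marks cycling cells, was detected in 6 Tregs and 2 follicular helper cells. The annotation puts dividing CD4 T cells of the Ins sort in a class of their own, with 35 cells. Foxp3 was detected in 27 of them (77.1%). Those cells are in neither class compared here, so this list cannot show whether Tregs and follicular helper cells differ in division. Glycolysis genes gave 3 higher (Ldha 1.72, Slc2a3 1.19 and Hk1 1.05), 0 lower and 10 neither of 13 (16 listed), with a median of 0.25, beside the same shares. Oxidative phosphorylation genes gave 2 higher (Cox4i1 1.74 and Cox5a 1.23), 1 lower (Atp5b -1.25) and 16 neither of 19, with a median of 0.18, also beside 9.30% and 3.45%. In cells with 1500 to 3000 genes, Ldha differed by 0.90 and Cox4i1 by 1.10.

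Transcripts of other cell types were found in both classes and moved with some of these results. Islet and acinar genes, 12 of 14 in the table, were found in 31 Tregs (27.0%, 19.1% to 36.0%), with summed levels from 0 to 28990 TPM, and in 8 follicular helper cells (13.1%, 5.84% to 24.2%), from 0 to 2695 TPM. The insulin gene Ins2 was among them in 15 Tregs (13.0%) and 3 follicular helper cells (4.92%), Sst was at 0 in Tregs, and Gcg, Iapp, Chga, Prss2 and Cpa1 were at 0 in follicular helper cells. Without every cell that held such a transcript, 479 genes were higher and 206 lower, and Foxp3 differed by 6.76. B cell genes, 8 of 9 in the table, were found in 35 Tregs (30.4%), summed levels 0 to 1291 TPM, and 16 follicular helper cells (26.2%), 0 to 10029 TPM, with Ms4a1 at 0 in both and Cd79a at 0 in Tregs.

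The myeloid list, 9 of 14 in the table, was detected in 95 Tregs (82.6%), summed levels 0 to 9443 TPM, and 26 follicular helper cells (42.6%), 0 to 3018 TPM. Cst3, the secreted protease inhibitor cystatin C, accounted for most of it, found in 94 and 23 cells, while the defining genes Lyz2, Lyz1, C1qb, Fcer1g, Flt3 and Tyrobp were at 0 in Tregs. In follicular helper cells C1qb, Fcer1g, Itgax, Flt3 and Tyrobp were at 0. Genes of plasma cells, 6 of 7 in the table, were found in 32 Tregs (27.8%), 0 to 1839 TPM, and 23 follicular helper cells (37.7%), 0 to 1291 TPM, with Sdc1 and Prg2 at 0 in both and Mzb1 at 0 in Tregs. The list of CD8 T and NK cells, 6 of 8 in the table, was found in 40 Tregs (34.8%), 0 to 1936 TPM, and 15 follicular helper cells (24.6%), 0 to 899.1 TPM, with Klrb1c at 0 in Tregs and Klrd1 and Gzma at 0 in follicular helper cells. Of the endothelial list, 2 of 8 were in the table: Cdh5 was detected in no cell of either class, and Pecam1, which some T cells also express, in 0 Tregs (up to 2.61%) and 13 follicular helper cells (21.3%, 11.9% to 33.7%). The part of these transcripts in the differences between the classes was not tested beyond the counts given.

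Cells of the HIP tetramer sort gave a second view of the follicular helper class, although the same annotation named it. Foxp3 was detected in 94 of 115 Tregs of the Ins sort, and in 8 of 61 follicular helper cells of the Ins sort and 2 of 111 of the HIP sort (1.80%, 0.219% to 6.36%). Tcf7 was found in 3 of those Tregs, 47 of 61 and 89 of 111 (80.2%, 71.5% to 87.1%), Cxcr5 in 13, 28 and 45 (40.5%, 31.3% to 50.3%) and Nkg7 in 80, 6 and 12 (10.8%, 5.71% to 18.1%). The HIP sort held 3 cells annotated as Treg, of which 1 held Foxp3, so the same comparison was not made there.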

How the data were processed

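Single CD4 T cells from mouse islets were profiled by SMART-Seq2, per the labels. The submitters' processing notes list TopHat, Bowtie, RSEM 1.2.8 and mm10, with no role for any of them. The authors deposited natural log values of 13561 genes for each of 441 cells. After exponentiation and subtraction of 1, each cell summed to 100000, so a value was read as ln(TPM/10 + 1) and turned back into TPM. The deposited annotation gave each cell's class and sort, which equalled the labels in 441 of 441 cells, and its number of genes. The sources used here do not say how the classes were made. No doublet caller was run on these singly sorted cells, and the highest correlation between any 2 of the compared cells was 0.494.

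Levels, shares and differences were computed in Python 3.11.15 with numpy 2.4.6, pandas 2.3.3 and scipy 1.17.1. Known shifts added to genes of these cells with shuffled classes came back as differences, which checks only the arithmetic of the differences. Shares carry Clopper-Pearson 95% intervals, and a share of 0 the limit of 3 cells. No p-value was computed, since each sort is 1 sample. Differences of log2(TPM + 1) use a pseudocount of 1 TPM and understate changes of genes whose levels lie near it. Where many cells hold 0, they can exceed the log2 ratio of mean levels. Cst3, for example, differed by 5.29 on the log2 scale, while its mean TPM in Tregs was 4.16 times that in follicular helper cells. Named genes were the 15 largest differences in each direction with the same sign in 3 blocks, 20 core lineage genes and the 4 largest of each list. The first group left out ribosomal protein and mitochondrial genes, unnamed gene models and the segments of antigen receptors. Other list members were named after their values were seen. The members and lists were chosen with earlier results of these data known. Alternatives changed the pseudocount, the scale, the filter, the size of the difference, the cells and the blocks. Promoters came from RefSeq (GRCm38.p6) by symbol, at the most upstream start given, and gene positions from GENCODE for GRCm38. Values of a few list members are not reported here.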

Additional observations from a re-analysis of the deposited data

How the results depend on the processing

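With a pseudocount of 10 TPM, 232 genes were higher in Tregs and 65 lower, and the marker medians were 1.62 for the Treg list and -1.04 for the follicular helper list. As a log2 ratio of mean TPM + 1, 334 genes were lower, and the calls shared 278 of 504 higher and 121 of 187 lower genes with the main ones. In cells with 1500 to 3000 genes, 321 were lower, and 57.3% of called genes were higher, against 72.9% in all cells. A difference of 2 gave 157 higher and 30 lower genes. A filter at 25% gave 99 lower genes and a Treg median of 4.96, and no filter a Treg median of 1.60. Leaving out a block at a time gave 520 to 700 higher and 221 to 386 lower genes, Treg medians of 2.13 to 3.06, follicular helper medians of -1.53 to -1.74, and median genes per cell of 1931 to 2174 in Tregs and 1793 to 2149 in follicular helper cells. Fewer blocks had to agree there, and the cause of the other shifts was not tested. The settings without cells that lacked CD3 transcripts, or that held islet, acinar or B cell receptor transcripts, were chosen after seeing the data. Equal weight of the classes in the filter, which gave 492 higher and 204 lower genes, was likewise not planned. A call asks for 1 sign in the 3 blocks, so leaving out a block says nothing on direction. With the follicular helper cells of the HIP sort, also added later, 86 of the 88 named genes called kept their direction, and Lax1 (0.14) and Dusp1 (-1.10) had the opposite sign. That setting reused the Tregs from which these genes were called, and the same annotation named both follicular helper groups. The agreement was therefore largely set in advance and supports nothing, and the classes there also differ in sort. No paired analysis was possible because no sample number or animal links the classes. Depth is unknown, so an undetected gene is not shown to be absent.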

Other observations

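Some gene families picked after their values were seen lay to one side. Over all 5417 genes compared, 2878 were above 0, 9.30% were higher in Tregs and 3.45% were lower. All 9 cathepsin genes that passed the filter, of 12 in the table, were above 0, and 5 were higher in Tregs: Ctss (3.83), Ctsd (3.53), Ctsb (2.95), Ctsa (2.71) and Ctsz (1.61), enzymes that degrade proteins in lysosomes. The median was 1.84, beside 0.04 over all genes. The cystatin genes Cst3 (5.29) and Cst7 (4.51), whose products inhibit such enzymes, were higher as well. Actin and actin nucleation genes had 7 of 15 members higher and 0 lower (median 0.71), with Actg1 (2.01) and the Arp2/3 subunits Actr3 (1.57), Arpc2 (1.48) and Arpc1b (1.39). Of the serpins, 8 passed the filter and 4 were higher, all near-identical Serpina3 genes that can share reads, with Serpina3g at 4.83.

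Ribosomal protein genes lay the other way. Of 88 that passed the filter, 80 were below 0, with a median of -0.67. By the rule 13 were lower in Tregs and 1 was higher (Rpl39, 1.31), beside 3.45% and 9.30% of all genes. Rpl39 was detected in 83.5% of Tregs and 67.2% of follicular helper cells, but its mean was 1320 TPM in Tregs and 1422 TPM in follicular helper cells. Together the ribosomal protein genes took 12.7% ± 3.58 of TPM in Tregs and 18.4% ± 5.94 in follicular helper cells (SD over cells). Block means were 13.5%, 12.7% and 12.1% in Tregs and 15.9%, 21.3% and 17.4% in follicular helper cells. Since TPM sums to a fixed total, a larger share for these genes leaves less for others. Without Rn45s and the ribosomal protein genes, 499 genes were higher and 207 lower. Of 11 tetraspanin genes past the filter, 4 were lower (Tspan3 -1.92, Cd9 -1.54, Tspan13 -1.25 and Cd82 -1.23) and Cd53 was higher (2.25), beside the same shares of all genes.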
